A study of Canis lupus familiaris with 109 samples.

Results

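The region described here is the stretch of dog chromosome 27 from 1000000 to 1400000 on the CanFam3.1 build, where the HOXC gene cluster is expected from the shared gene order of mammals. Its members were chosen by coordinate alone, as every cytosine position that the deposited main table lists in that interval, although the interval was proposed with earlier results of these data in view. The main table listed 626 positions there, of 304191 in all and 7165 on chromosome 27, and the repeat table listed 3652 of its 1812277. Listed positions ran from 1007275 to 1331251 in the main table, and 585 of the 626 were also in the repeat table.

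The samples are blood DNA of domestic dogs, assayed by bisulfite sequencing after capture. In this assay unmethylated cytosines are converted and read as thymine, methylated cytosines are still read as cytosine, and hybridisation capture selects the regions sequenced. The labels describe 94 samples of the main capture, from dogs aged 0.134 to 14.5 years (median 6.37), together with 6 repeat captures (0.384 to 15.5 years), 1 further first capture used with the repeats (15.5 years) and 8 samples of low coverage. All are untreated whole blood, a mixture of cell types, so that a different level in the cells and a different mixture of cells cannot be told apart. Table rows are named by library codes, and 0 of them matched a sample title. The 95 libraries of the main table and the 7 of the repeat table were therefore left without age, sex or group. Which of them are captures of the same dog cannot be told from the labels. Values are methylation fractions from 0 to 1 without read counts, so the depth behind each value is unknown and no interval is given.

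HOX genes encode homeodomain transcription factors that set position along the body axis in the embryo, and they lie in clusters in which neighbouring genes are expressed in an ordered series. Their promoters and much of the DNA between them hold CpG islands, which are stretches rich in the CG dinucleotide that is the usual target of methylation in mammals. In cells where the genes are silent these islands are commonly covered by Polycomb proteins, and low DNA methylation is the usual state there. HOTAIR, a long noncoding RNA, is transcribed from within the HOXC cluster.

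The identity of the genes could not be checked, since the gene table at hand is on another assembly (UU_Cfam_GSD_1.0) and no genome of the tables' build was used here. On that assembly 25 of 27 symbols looked for lay on chromosome 27, among them 9 HOXC genes. Their order there ran from PCBP2, MAP3K12, TARBP2, ATP5MC2 and CALCOCO1 to HOXC13, HOXC12, HOTAIR and the HOXC genes from HOXC11 down to HOXC4, followed by SMUG1, CBX5, HNRNPA1, NFE2 and COPZ1. No position below is assigned to any of these genes, and regions are given by coordinates.

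The positions of the window were mostly unmethylated or partly methylated in blood, and few were fully methylated. A position's level is its median fraction over the 95 libraries, and levels under 0.1 are called unmethylated and over 0.8 methylated. Of the 626 positions, 411 (65.7%) were unmethylated, 180 (28.8%) lay between and 35 (5.59%) were methylated. Over all positions of the main table, unmethylated ones made up 50.6% and methylated ones 32.8%, which leaves 16.7% between, and on the whole of chromosome 27 the shares were 54%, 28.9% and 17%. Among 917 windows of 400 kb with at least 100 positions, 11 held more positions than this one (median 154). The unmethylated share was unexceptional among them, with 380 windows higher, whereas the share between was exceeded in 82 windows (median 12.7%) and the methylated share was higher in 852 (median 22.6%).

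The window falls into 3 blocks, which were delimited after the levels had been seen. A first cluster of 96 positions from 1007275 to 1037845 held 67 unmethylated and 15 methylated positions. A sparse middle of only 21 positions spread over 123024 bp, from 1063744 to 1186767, held 14 methylated positions and no unmethylated one. A dense cluster of 509 positions from 1204863 to 1331251, 126389 bp long, held 344 unmethylated positions (67.6%), 159 between and 6 methylated. The mean over the dense cluster was 0.0806 in the lowest library, 0.126 in the median one and 0.162 in the highest, against 0.721, 0.805 and 0.881 in the sparse middle. The libraries' ranges in the dense cluster and the sparse middle did not overlap, which is a description, since the blocks were delimited with the levels known.

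**Figure D1:**
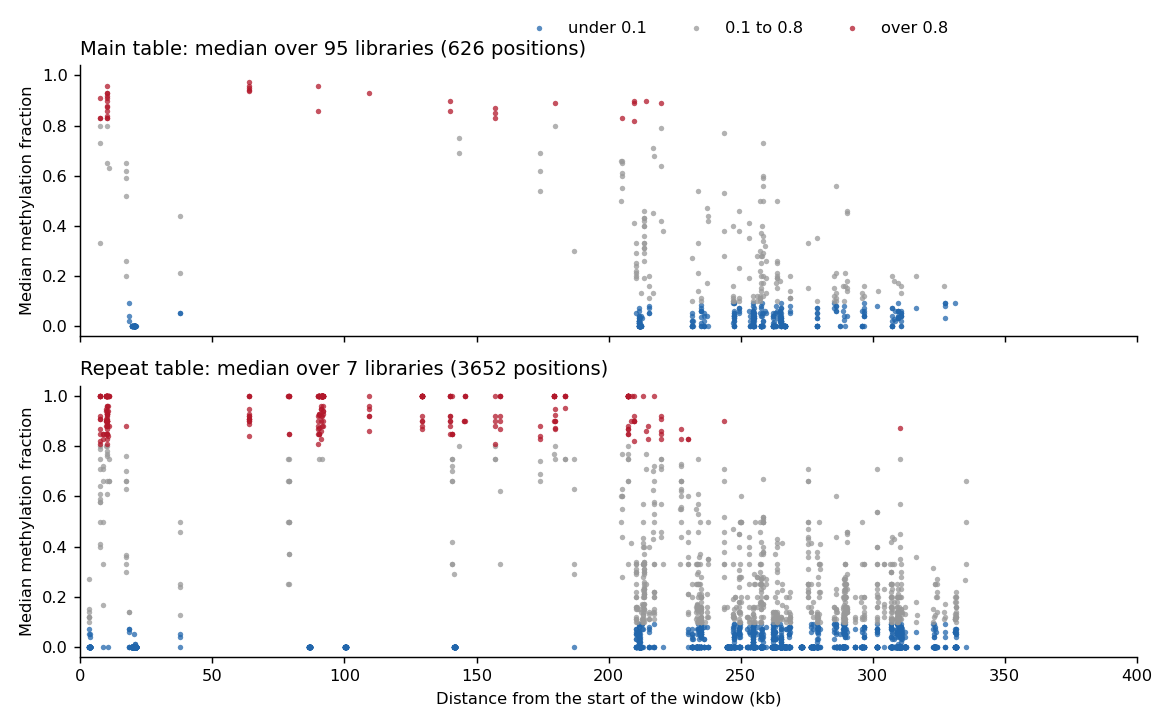
Median methylation fraction of each listed position against its distance from the start of the window in kb, in the main table (top, 95 libraries) and in the repeat table (bottom, 7 libraries); colours mark the classes under 0.1, 0.1 to 0.8 and over 0.8. The main table holds 96 positions in the first cluster, 21 in the sparse middle and 509 in the dense cluster, and 6 of its 35 methylated positions lie in the dense cluster.

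At the borders of the first and the dense cluster described here, levels changed through intermediate values. Elsewhere neighbouring listed positions differed widely, as with medians of 0.33 at 1213382, 0.9 at 1214341 and 0.05 at 1215206. In the first cluster, medians of 0.65 at 1017307 and 0.2 at 1017346 were followed by 0.09 at 1018300, 0.02 at 1018339 and 0 at 1019499. The longest stretch of consecutive unmethylated positions ran from 1018300 to 1037798, with 67 positions over 19499 bp and medians of 0 to 0.09. The main table lists no position between 1020917 and 1037747, so most of this span was not measured there. The longest methylated stretch of the main table followed in the sparse middle, from 1063744 to 1139960. It held 10 positions over 76217 bp, with medians of 0.86 to 0.975. It is not unbroken in the repeat table, which lists unmethylated positions inside it. These lie from 1086686 to 1086872 (median level 0.00417) and from 1100303 to 1100435 (0.00973). At the start of the dense cluster the medians were 0.89 and 0.9 at 1209547 and 1209562, 0.41 at 1209631 and 0.82 at 1209662. They were 0.19 to 0.33 at the 8 positions from 1210307 to 1210391, 0.05 at 1210419 and 0 at 1211369. Levels thus fell from above 0.8 to 0 within less than 2 kb of listed positions, with gaps between them.

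Across the window the repeat table lists 1726 pairs of positions 1 bp apart, against 21 in the main table. Counts of positions are therefore unlike between the tables. The repeat table showed more of the sparse middle, where it listed 376 positions. Of these, 146 were unmethylated, 44 lay between and 186 were methylated. The unmethylated ones included 3 runs at which the main table lists no position, from 1086686 to 1086872 (median level over the 7 libraries 0.00417), from 1100303 to 1100435 (0.00973) and from 1141589 to 1141881 (0.0131). The absence of unmethylated positions from the sparse middle therefore held for the main table and not for the repeat table. At positions that the repeat table alone lists, 3.71% of cells were empty and 64.5% of the others were at 0 or 1, against 0% and 39% at the shared positions. Over the whole window the repeat table's shares were 68.3% unmethylated, 23.2% between and 8.41% methylated.

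Unmethylated positions of the dense cluster were less often at 0 than those elsewhere. Of the 344, 138 (40.1%) had a median under 0.005, against 85.7% of 153444 unmethylated positions outside the window. Positions with at least 10 listed positions within 100 bp on either side, itself included, are called densely listed. Of the 262 densely listed positions of the cluster, 34.4% had a median under 0.005, 49.2% a median from 0.005 to under 0.1 and 16.4% lay between 0.1 and 0.8. Of 122101 densely listed positions outside the window, 75.1% were under 0.005, 8.1% from 0.005 to under 0.1, 7.87% between and 8.9% methylated. The first cluster was unlike the dense cluster in this respect, with 92.5% of its 53 densely listed positions under 0.005.

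The low but non-zero level was present in every library. At the 219 densely listed unmethylated positions of the cluster, the mean fraction was 0.0194 in the lowest library, 0.0349 in the median and 0.0581 in the highest. At 101624 such positions outside the window it was 0.00736, 0.00964 and 0.0148, and the cluster was higher within each of the 95 libraries, by a factor of 2.37 to 4.91 (median 3.66). In the whole window, 33.7% of positions had medians from 0.005 to under 0.1, and 40 of the 917 windows of 400 kb had more (median 4.23%). These counts depend on the treatment of values of exactly 1.0, which were replaced by 0.01 wherever a position's median was under 0.05. This changed 947 cells, 1.59% of the window, a median of 4 per library and 71 in the library coded L4_A7.

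Positions no more than 100 bp apart were joined into runs, and runs with 10 or more positions were kept, each library's level being the average of the run's fractions. There were 20 runs with 388 positions, and 238 positions lay in none. Of these runs 16 had a median level under 0.1, 3 lay between and 1 was over 0.8. The methylated run, from 1009920 to 1010121 with 14 positions, lay in the first cluster at 0.859 (libraries from 0.785 to 0.931). The other run of that cluster, from 1020372 to 1020675 with 49 positions, was at 0.00204 (0 to 0.00735), and its libraries did not overlap with those of the former.

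The remaining 18 runs lay in the dense cluster and formed a graded series. Those nearest to 0 were 1266553 to 1266712 at 0.00412 (0 to 0.0235) and 1211961 to 1212137 at 0.00929 (0 to 0.0329). They were followed by 1262225 to 1262308 at 0.0258, 1211369 to 1211799 at 0.0268, 1255067 to 1255130 at 0.0354, 1264836 to 1265312 at 0.038 and 1254554 to 1254813 at 0.046. The libraries of these 5 runs overlapped, between 0 and 0.138, and neighbours in this order differed by less than the SD over libraries of either run.

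A further group of runs had median levels between 0.05 and 0.1. These were 1307281 to 1307419 at 0.052, 1278793 to 1278963 at 0.0587, 1234865 to 1235006 at 0.0627, 1310766 to 1310880 at 0.0682, 1309559 to 1309632 at 0.0708, 1247173 to 1247471 at 0.0785, 1296626 to 1296726 at 0.084 and 1257602 to 1257760 at 0.0914. Single libraries reached 0.225 in the run from 1278793 and 0.199 in the run from 1234865. Above them stood 1263373 to 1263807 at 0.163 (0.0856 to 0.243), 1258147 to 1258473 at 0.231 (0.154 to 0.3) and 1213231 to 1213382 at 0.358 (0.025 to 0.763).

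**Figure D2:**
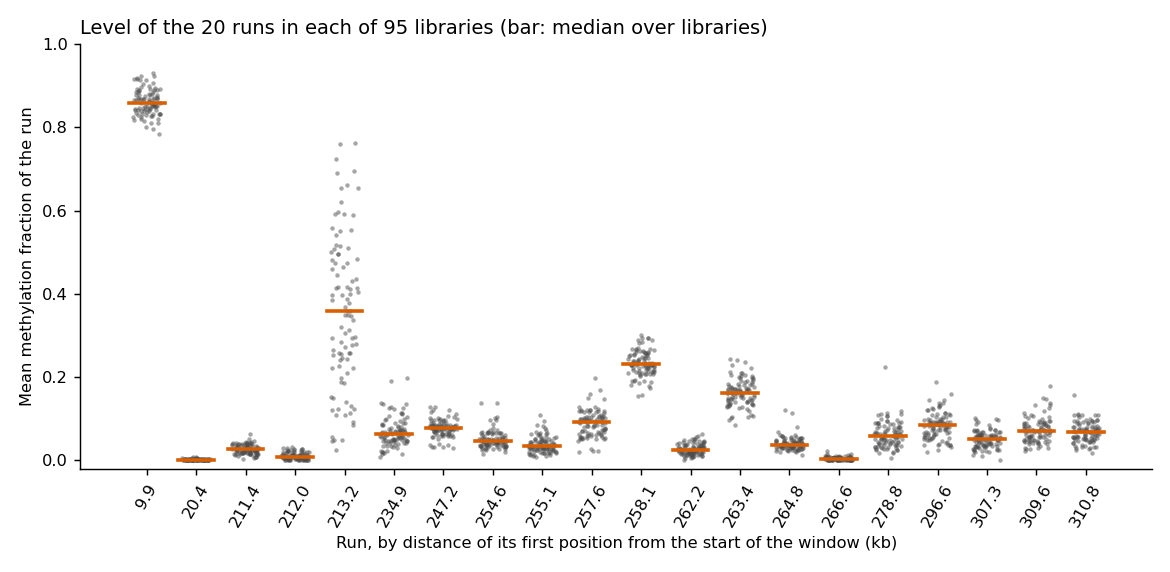
Mean methylation fraction of each of the 20 runs (y axis) in each of the 95 libraries (points, spread sideways for visibility), with the median over libraries as a bar; runs are ordered by the distance of their first position from the start of the window in kb. The run at 213.2 kb covers 0.025 to 0.763, whereas the other dense-cluster runs stay at 0.3 or below in all libraries.

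Partial methylation was uneven along many runs. Of the 18 dense-cluster runs, 5 held both a position with a median under 0.005 and one with a median of at least 0.3. In the run from 1257602 to 1257760, the first 7 positions had medians of 0, the medians rose to 0.37 at 1257685 (libraries from 0.14 to 0.72) and were 0.28 at 1257701, and the last 5 positions were again at 0. The run from 1258147 to 1258473 had medians of 0.28 and 0.4 at its first 2 positions, 0 at the 4 positions from 1258218 to 1258254, a peak of 0.73 at 1258331 (0.51 to 0.9) and 0 at 1258411. In the run from 1263373 to 1263807 a median of 0.5 at 1263626 (0.16 to 0.9) stood between 0.15 at 1263595 and 0.19 at 1263632. The run from 1247173 to 1247471 had 0.4 at 1247236 and 0 at 1247330, and the run from 1278793 to 1278963 had 0.35 at 1278906 and 0 at 1278941.

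For these uneven runs like profiles were seen in the repeat table, which holds repeat captures per the labels. Across the positions listed in both tables, the medians of the main and of the repeat table correlated at r = 0.949 over 22 positions of the run from 1257602, r = 0.994 over 22 positions of the run from 1258147 and r = 0.942 over 14 positions of the run from 1263373. These are correlations across neighbouring positions, which are not independent, and are given as a description. The largest difference between the medians was 0.1, 0.12 and 0.1 in these runs. In the runs from 1247173 and 1278793 r was 0.934 and 0.957. These runs were named for their wide range of medians. Where r could be computed in the other dense-cluster runs, it was 0.125 (run from 1262225) to 0.988 (run from 1307281). It was 0.747 in the run from 1213231.

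Positions that the repeat table lists 1 bp apart were taken as the cytosines of both strands of 1 CpG. Over the dense cluster, with 1113 to 1286 such pairs per library, the mean of the second cytosine minus that of the first was between -0.00963 and 0.0025 in the 7 libraries. The levels of the strands correlated across pairs at r = 0.489 to 0.741 (median 0.643). In the run from 1258147, with 18 to 21 pairs, r was 0.308 to 0.865 (median 0.816). The correlation across pairs was lower in the run from 1213231 to 1213382, the most variable of the window. Over its 14 pairs r was -0.483 to 0.503 (median 0.275), and the second cytosine minus the first was -0.0471 to 0.16 (median 0.106), with the second higher in 5 of 7 libraries. Main-table position medians span 0.19 to 0.46 in this run and 0 to 0.73 in the run from 1258147. The r values are therefore not directly comparable.

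The run from chr27:1213231-1213382 (14 positions over 152 bp) was the most variable of the window. Its level was 0.025 in the lowest library, 0.358 in the median and 0.763 in the highest, with quartiles of 0.234 and 0.49. In 7 libraries it was under 0.1, 20 libraries were under 0.2, 53 lay from 0.2 to 0.5 and 22 were over 0.5. Libraries were thus found at low, middle and high levels. Its SD over libraries was 0.183, and 5 of the 7274 runs of the whole table had a larger one (median SD 0.00686). It was named for this spread, so the spread is a description and was not tested.

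The 14 positions of this run moved together. Their medians were 0.19 to 0.46, and the median correlation between pairs of its positions across the 95 libraries was 0.863, against at most 0.207 in the other runs of the window. The nearest listed positions on either side varied less. At 1212781, 450 bp before the run, the median was 0.03 with an SD of 0.0549, and at 1214341, 959 bp after it, the median was 0.9 with an SD of 0.0915. In the 1 library L1_A7 all 14 cells had more than the usual decimals and are treated as filled in. A further 4 cells, in 3 libraries under 0.2, were exactly 1.0 beside low values and were kept as deposited. These libraries are L5_A4 (level 0.11), L9_A4 (0.121) and L1_A3 (0.186). The kept cells raise their levels, so the count of libraries under 0.1 depends on them.

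A stretch of 8 positions from 1204863 to 1204928, 8303 bp before the run, varied to a like extent. Its level was 0.174 in the lowest library, 0.643 in the median and 0.951 in the highest, with an SD of 0.185, and its positions correlated at a median of 0.807. Together these regions supplied 6 of the 8 positions with the largest SD. The largest SD of all belonged to single positions at the start of the first cluster, 1007405 (SD 0.281, median 0.33, 30 libraries under 0.12, 47 from 0.3 to 0.7 and 4 over 0.88) and 1007275 (SD 0.242, median 0.73). The others were 1204863 (SD 0.231), 1204928 (0.227), 1213382 (0.224), 1204877 (0.223), 1204924 (0.222) and 1204909 (0.218).

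**Figure D3:**
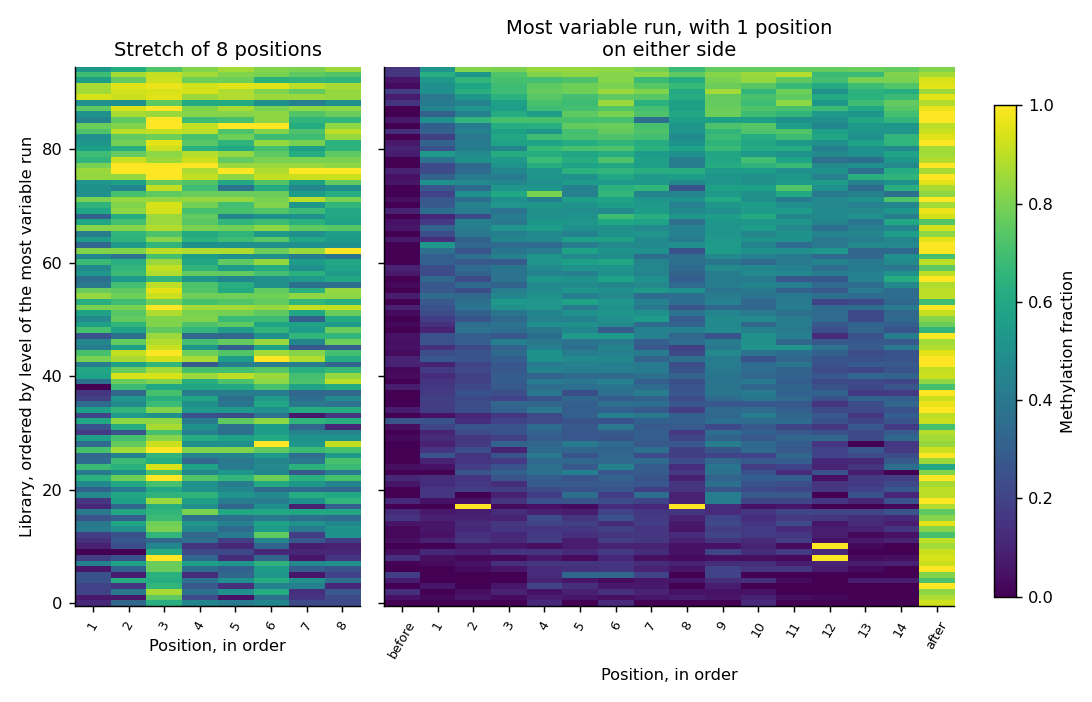
Methylation fraction (colour, 0 to 1) of single positions (columns, in order along the chromosome) in the 95 libraries (rows, ordered by the level of the most variable run, which ranges from 0.025 to 0.763). Left, the stretch of 8 positions; right, the 14 positions of the run with the listed position before it (median 0.03) and after it (median 0.9), which have SDs of 0.0549 and 0.0915.

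Variable positions were more frequent in the window than in the table as a whole. An SD over libraries above 0.1 was found at 152 of 626 positions (24.3%), against 15.2% of all positions of the table. By class the picture differed. Among positions between 0.1 and 0.8 the share was 60% in the window (108 of 180) against 69.5% in the whole table, and among unmethylated positions it was 9.73% (40 of 411) against 3.74%. At the 97 unmethylated positions with medians of 0.05 or more, where values of 1.0 were kept, 69 cells were 1.0 and 2 lay from 0.5 to under 1.0. With 1.0 also set to 0.01 at all positions with a median under 0.2, a setting added after the data were seen, 112 positions of the window (17.9%) had an SD above 0.1, against 13.2% of the table. The excess of the window was thus smaller under that setting.

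Levels of runs were then compared across the 95 libraries. In total 4 relations were tested, each by 100000 two-sided permutations for Pearson's r and for Spearman's rho, with Benjamini-Hochberg adjustment over the 4. They were picked after their values had been seen, and the most variable run was named for its spread. The adjustment does not cover that choice, and the permutations treat all libraries as exchangeable. The most variable run was higher in libraries in which the mean of the other 17 dense-cluster runs was higher (r = 0.408, permutation p = 6e-05, adjusted p = 0.00012; rho = 0.46, permutation p = 1e-05, adjusted p = 2e-05). Leaving out the 2 libraries with the most extreme levels of the run gave r = 0.485. Library codes start with 1 of 10 prefixes, and within these r was positive in 10 of 10, from 0.00567 to 0.796. It differed with the second element of the code. In the 16 libraries with A1, A3 or A4, a set chosen with earlier results of these data known, r was 0.738. In the other 79 it was 0.186, a difference that was not tested. With the mean of each second element taken out r was 0.226 (permutation p = 0.055), and with values of 1.0 as deposited it was 0.125 (permutation p = 0.231), so that neither setting keeps the call.

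The most variable run was lower where the methylated run of the first cluster was higher (r = -0.328, permutation p = 0.00141, adjusted p = 0.00141; rho = -0.317, permutation p = 0.00201, adjusted p = 0.00201). Without the 2 farthest libraries r was -0.333, and within prefixes it ranged from -0.755 to 0.166, positive in 3 of 10. In the libraries coded A1, A3 or A4 r was -0.744, and in the other 79 it was -0.0767. With the mean of each second element taken out r was -0.243 (permutation p = 0.0653), and the call is lost.

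The mean of the 17 other runs was related to levels elsewhere in the genome. It rose with the mean of unmethylated positions on other chromosomes (r = 0.58, permutation p = 1e-05, the smallest that these permutations can give, adjusted p = 4e-05; rho = 0.525, permutation p = 1e-05, adjusted p = 2e-05). Within prefixes this r was 0.287 to 0.9, and without the 2 farthest libraries it was 0.512. It was 0.202 in the libraries coded A1, A3 or A4 and 0.643 in the others, and 0.932 with values of 1.0 as deposited. It fell with the mean of methylated positions on other chromosomes (r = -0.382, permutation p = 0.00011, adjusted p = 0.000147; rho = -0.396, permutation p = 0.0001, adjusted p = 0.000133). Here r was -0.305 without the 2 farthest libraries, within prefixes it was -0.882 to 0.246, positive in 2 of 10, and in the libraries coded A1, A3 or A4 and in the others it was -0.274 and -0.344.

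The stretch of 8 positions was singled out as the one in the window most like the most variable run, so its correlation is given without a test. Over the 95 libraries r was 0.73 and rho 0.732, within prefixes r was 0.622 to 0.91, and it was 0.804 in the libraries coded A1, A3 or A4 and 0.646 in the others. Of 41 other stretches of at least 5 positions in the window, 2 (4.88%) reached an r of 0.5 with the run, against 206 of 18089 stretches outside the window (1.14%), where the highest r was 0.747. The second was 1215206 to 1215327, with 7 positions and a median level of 0.101 (0.0143 to 0.337), at r = 0.599. With the mean of each second code element taken out, 1 stretch of the window and 24 outside (0.133%) reached 0.5. Among the 153 pairs of dense-cluster runs r had a median of 0.107 (-0.326 to 0.455), was above 0 in 118 and above 0.3 in 23, so that most runs of the cluster were only weakly related to each other.

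The set of codes A1, A3 and A4 was chosen with earlier results of these data known, so what follows is a description. The other 79 libraries include the 11 with prefix SCE, whose second element is CF. The libraries coded A1, A3 or A4 had low levels in the most variable run. Its median was 0.131 in these 16 (0.046 to 0.653) and 0.396 in the other 79 (0.025 to 0.763), and 11 of the 16 against 9 of the 79 were under 0.2. The ranges overlapped. In the stretch of 8 positions the medians were 0.406 and 0.68, and 15 of the 18 dense-cluster runs had a lower median in the 16 libraries. Over the whole main table, with 7274 runs, a lower median in them was found in 48.4%, and of the 5184 with a median level under 0.1 the share was 48%. It was 66.7% of the 972 runs from 0.1 to 0.8, the class of the most variable run. Of the 1118 runs over 0.8, the class of the methylated run, it was 34.1%. The methylated run was higher in the 16 libraries, at 0.892 against 0.853. What the code element stands for is not given in the sources used here, so no test was made between these libraries. By prefix, the median of the most variable run was between 0.259 (SCE, 11 libraries) and 0.496 (L6, 8 libraries).

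**Figure D4:**
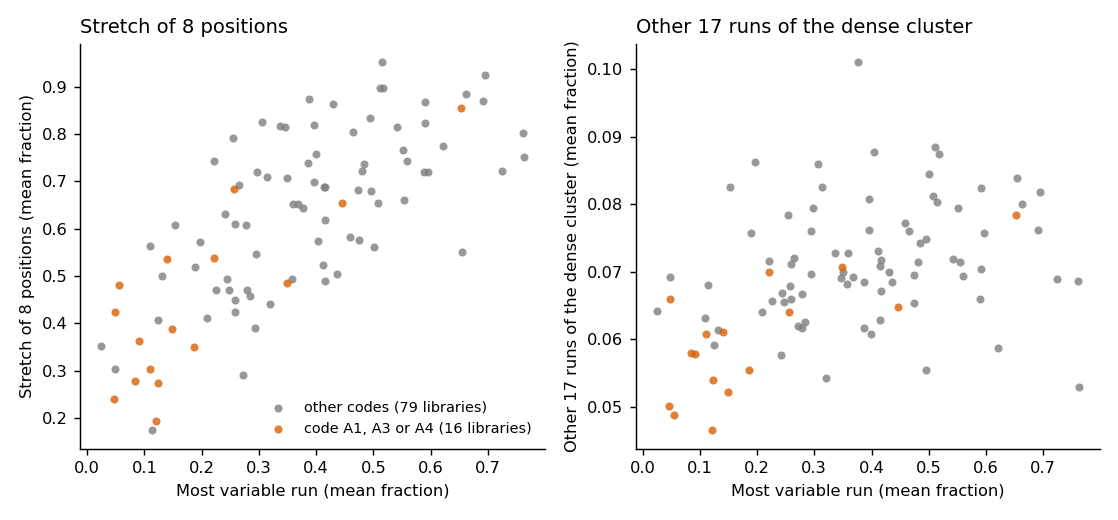
Level of the most variable run (x axis, mean fraction) against the stretch of 8 positions (left, y axis, mean fraction) and against the mean of the other 17 dense-cluster runs (right) in 95 libraries; orange points are the 16 libraries whose code has A1, A3 or A4. The left relation (r = 0.73) is seen in both sets of points, and the right one (r = 0.408) is weaker among the grey points (r = 0.186).

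Repeat libraries allowed the levels to be compared with the spread between captures. The labels describe repeat captures of 6 dogs, and 6 libraries of the repeat table share a number (1, 5, 6, 7, 8 and 10) with a library coded Pilot. The Pilot libraries 5, 6, 7, 8 and 10 are in the main table, and Pilot library 1 is in the repeat table, so that both libraries of pair 1 come from the repeat table. Pairs were formed by that number, which the labels do not tie to a dog, so values are given without a test. Over the 585 shared positions the pairs correlated across positions at r = 0.935, 0.945, 0.921, 0.916, 0.884 and 0.883 in that order. The mean absolute difference was 0.0437 to 0.0695, and the mean of the repeat library minus that of the Pilot library was -0.0126 to 0.0131, positive in 2 of 6 pairs.

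In the most variable run, over its 12 shared positions, the repeat libraries were at 0.267, 0.0992, 0.412, 0.281, 0.774 and 0.268 and the Pilot libraries of the same numbers at 0.269, 0.139, 0.522, 0.139, 0.476 and 0.266. Pairs 1 and 10 were nearly equal, whereas pair 8 differed by 0.298. The SD within pairs was 0.101, below the SD of 0.183 over the 95 libraries. In the run from 1258147 the repeat libraries were between 0.182 and 0.223 and the Pilot libraries between 0.16 and 0.265, and the SD within pairs of 0.0349 was above the 0.0302 over libraries. Of the 20 runs, 9 had a smaller SD within pairs than over libraries, and the median ratio was 1.03 (0.462 to 2.15). In the remaining runs the spread over libraries was no larger than that between libraries sharing a number. The measures are unlike, since the SD within pairs used shared positions only and the SD over libraries all main-table positions of a run. Except in pair 1, the SD within pairs also holds any difference between the main and the repeat table.

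The run from 1211369 to 1211799 had the highest ratio. It was higher in the repeat library in 6 of 6 pairs, at 0.04 to 0.0758 against 0.0187 to 0.0435. The rule for values of 1.0 used each table's own medians. At some positions of this run, such as 1211541 (0.02 in the main and 0.08 in the repeat table), it applied in the main table alone. The effect of this on the difference was not tested. Among single positions the largest median difference was at 1257298, where the repeat library was lower in 6 of 6 pairs by 0.12 to 0.36, with medians of 0.45 and 0.645. The next were 1233684, with a median difference of -0.19 and the repeat library higher in 1 of 6 pairs, and 1204928 in the stretch of 8 positions, with a median difference of 0.18 and the repeat library higher in 4 of 6. Differences at the last 2 positions varied in sign between pairs.

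**Figure D5:**
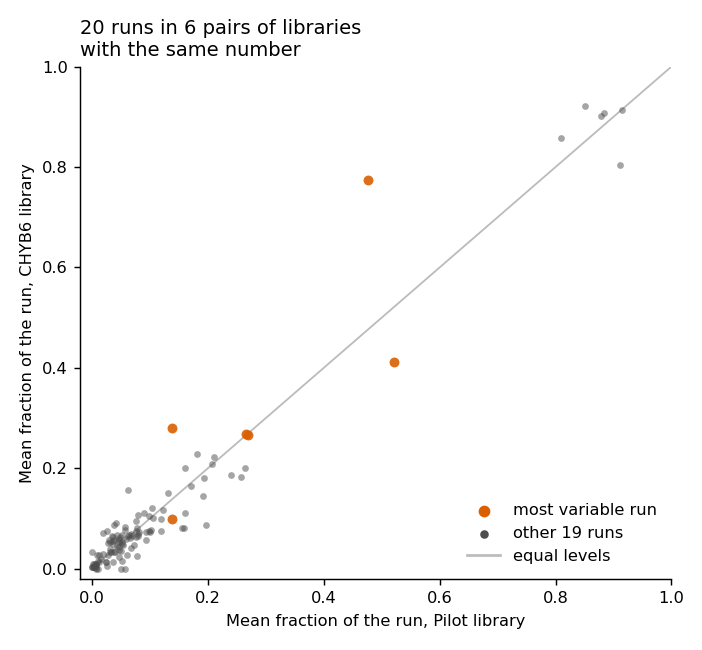
Mean methylation fraction of each of the 20 runs in the Pilot library (x axis) and in the repeat library coded CHYB6 with the same number (y axis), for 6 pairs; orange points are the most variable run and the grey line marks equal levels. On the y axis the orange points lie between 0.0992 and 0.774, and pair 8 (0.476 and 0.774) is the one farthest from the line.

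The repeat table added regions that the main table does not list. It held 101 runs in the window, of which 46 contained no position of the main table. Of its 79 runs in the dense cluster, 45 had a median level under 0.1, 33 lay between and 1 was over 0.8. Of its 13 runs in the sparse middle, 3 were under 0.1 and 8 over 0.8. The first run of the window in that table, from 1003337 to 1003852 with 72 positions, lay before the first position of the main table at a level of 0.0311 (0.0186 to 0.0558 over the 7 libraries).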

How the data were processed

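The values deposited by the authors are fractions methylated, given for each position in each library with no counts or coverage. Per the submitters' processing notes, Trim Galore, Bismark 0.14.3, Bowtie2 2.1.0 and CanFam3.1 were used, without the step of each. Coordinates are those listed in the tables, and whether they count from 0 or from 1 was not settled. Values within 1e-06 of 1.0 were set to 0.01 at columns with a median under 0.05, in both tables, each by its own medians. Cells with more than the usual decimals were treated as filled in (0.74% of window cells, up to 130 in L1_A7) and kept.

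The members, the lists and the set of codes A1, A3 and A4 were chosen with earlier results of these data known. Named are all runs of at least 10 positions, the 8 positions with the largest SD, the longest unmethylated and methylated stretches and the 3 positions with the largest difference between captures. The blocks, the stretch of 8 positions, the densely listed positions, the other stretches and runs of the repeat table, and the single positions that show a border or a profile were picked after their values were seen, as were the 4 relations among those the design allows. The limma test of age, the sign-flip test of repeat captures and the check of gene identity were not run, since no library could be tied to a label and no sequence of the window was used here. The steps were tested on simulated data. Versions were NumPy 2.4.6 and SciPy 1.17.1 under Python 3.11.15, with figures from Matplotlib 3.10.9.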

Additional observations from a re-analysis of the deposited data

How the results depend on the processing

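Of 48 alternatives, 36 kept direction and call or moved less than the tolerance, and none reversed. The tolerance was the 95% Wilson interval for a share, 1.5 times for a count, 1 SD for a level or pair value and 0.1 for an untested r. With a lower boundary of 0.2, 76.7% of positions were unmethylated, against 65.7%, and from 1100000 to 1300000 alone 2.72% were methylated, against 5.59%. Runs of at least 5 positions numbered 42 in place of 20. With 1.0 as deposited, the median level of the other 17 dense-cluster runs was 0.0854 in place of 0.0693, the number of positions with an SD above 0.1 was 401 in place of 152, and the median r of the repeat pairs was 0.881 in place of 0.919. That r was 0.813 at positions with a mean of both captures between 0.1 and 0.9. At an SD above 0.05, 341 positions were counted. The relation between the most variable run and the other dense-cluster runs was lost with 1.0 as deposited (r = 0.125, permutation p = 0.231) and with the mean of each second code element taken out (r = 0.226, permutation p = 0.055), and the relation with the methylated run with the latter (r = -0.243, permutation p = 0.0653), where the r of the stretch of 8 positions was 0.616. The cause was not tested. No paired analysis was possible because no library could be tied to a labelled sample, and the pairs formed by code number are described without a test. The 2 alternatives of the gene identity check were not run. A further set of alternatives was chosen after seeing the data: 1.0 set at medians under 0.2, the second code element taken out, and filled-in values left out in the most variable run. Read depth is unknown, so precision at single positions cannot be given.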
